A study of Mus musculus with 9 samples.

Results

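Many transcripts of freshly isolated splenic B cells fall during activation. Here 39 such genes were examined for their levels in B cells that lack the lactate and pyruvate transporter MCT1. The 39 genes were chosen by their measured values from the 17596 genes of the expression table. Each had a mean of at least 1 FPKM (fragments per kilobase of transcript, scaled to the mapped fragments of a library) over all 9 libraries. In control B cells the mean log2(FPKM + 1) of each was lower by more than 1 on day 3 of activation than on day 0, and on day 3 it was higher by more than 0.5 in Mct1-deficient than in control B cells. Lrig2, Lyz2 and Adgre1 and 4 predicted gene models (Gm33887, Gm46620, Gm52437 and LOC100862446) met the same limits and were left out by name. The day 3 control libraries enter both differences with opposite sign, so a low value in them favours selection on both counts, and the sizes of both differences are given below as a description, without a test.

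RNA sequencing was performed on primary B cells of the spleen from Mb1Cre mice (control) and Mct1f/fMb1Cre mice (Mct1-deficient), either fresh (day 0) or after 3 days in culture, where LPS was added at 10 μg/ml and IL-4 at 50 ng/ml. The mice of both genotypes were on a C57BL/6J background, 6 to 8 weeks old, and carried Cre under the Mb1 (Cd79a) locus, which is active from early B cell development on. In the Mct1-deficient mice Cre removes a floxed part of Mct1 (Slc16a1 in the table) in B lineage cells alone, and other splenic cells keep the gene. There were 2 control and 2 Mct1-deficient libraries on day 0, and 2 control and 3 Mct1-deficient libraries on day 3. The labels name no mouse, litter or batch, so the spread between libraries may be technical in part.

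Naive B cells rest in a quiescent, circulating state that depends on transcription factors of the KLF and FOXO families. KLF2 maintains the receptors and integrins that let naive lymphocytes leave and enter lymphoid tissue. Stimulation through TLR4 by LPS together with IL-4 drives the cells into growth, division and class switching, and the transcripts of the resting state decline.

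Slc16a1 had 22.6 and 22.9 FPKM in the control and 10.8, 9.81 and 9.50 FPKM in the Mct1-deficient libraries on day 3 (log2 difference -1.11, adjusted p = 9.07e-06 from limma). On day 0, at 4.33 and 3.80 against 3.71 and 4.06 FPKM, it did not differ significantly (log2 difference -0.05, adjusted p = 0.844 from limma), so by this gene the day 0 genotype rests on the labels. B cell markers, among them Ms4a1, Cd79b and Pax5, were present in all libraries. The Y-linked gene Ddx3y had 0.24 and 0.02 FPKM in the control libraries of day 0, 31.1 and 0.20 FPKM in the Mct1-deficient libraries of day 0 and 14.7 to 16.9 FPKM in all libraries of day 3. The day and the sex of the donors therefore cannot be told apart in the control, and on day 0 the donors' sex differed between the Mct1-deficient libraries and, with the first of them, between the genotypes. Monocyte and macrophage markers (17 genes) summed to 1410 to 1776 FPKM on day 0 and to 39.3 to 61.2 FPKM on day 3. Since the libraries are bulk RNA, fewer cells of a type and less RNA per cell cannot be told apart.

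Of the 10823 tested genes (mean FPKM of 1 or more), 1869 fell by more than 1 on the log2 scale during activation of control B cells. Of these, 46 (2.46%) were more than 0.5 higher and 15 (0.803%) more than 0.5 lower in Mct1-deficient B cells on day 3. Of the 1324 genes that had risen by more than 1, 8 were higher and 95 lower by the same limit. Over all tested genes, 107 (0.989%) were higher and 180 (1.66%) lower. The day 3 control libraries enter both differences with opposite sign, which favours such opposite counts, and these were not tested. The 39 genes were thus a small part of the genes that fell, whose median genotype difference on day 3 was 0.04, against -0.01 for all tested genes and 0.70 for the 39 genes. Their median in the day 0 control was 45.3 FPKM, against 15.6 FPKM for the repressed genes in general. The choice of the genes favours such a difference. The day 0 control libraries entered it, and limits on log2(FPKM + 1) are harder to reach for low genes.

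**Figure D1:**
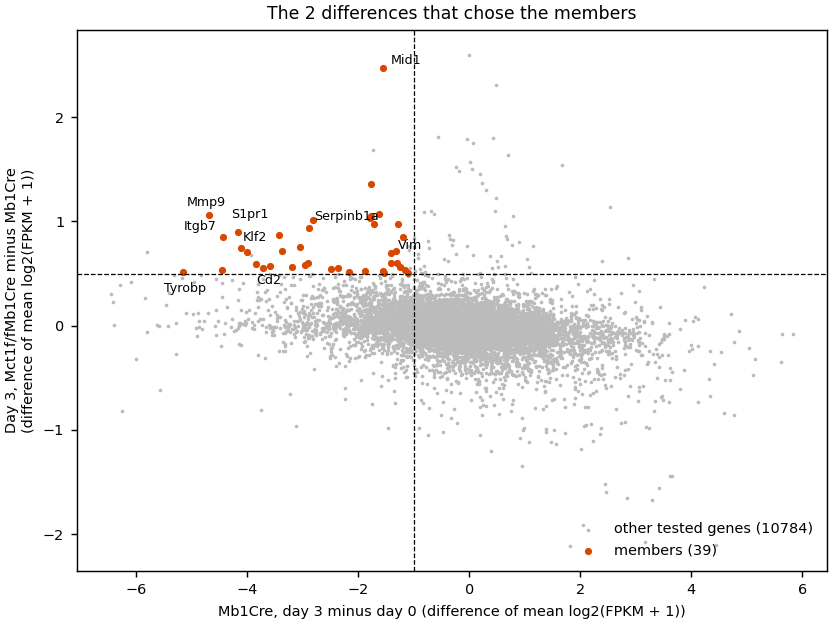
Each point is 1 of the 10823 tested genes, with the change of mean log2(FPKM + 1) from day 0 to day 3 in Mb1Cre B cells on the horizontal axis and the day 3 difference of Mct1f/fMb1Cre minus Mb1Cre on the vertical axis. Dashed lines mark the limits of -1 and 0.5, and the 39 genes in orange fill the upper left corner by construction, with Mid1 at the top (2.47).

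The genes nearest the limits differed little from those beyond them. Rasgrp3 (0.50) and Dse (0.51) were just inside the limit on the day 3 difference, and Mgst1 (0.50) and Fry (0.50) were just outside. Dse (-1.11) and Ehd2 (-1.15) were just inside the limit on repression, while Marco (-0.998) and Sh3bgrl3 (-0.98) were just outside. Entpd4 had the lowest mean (1.37 FPKM), followed by Zfp966 (2.55 FPKM), and no gene that met the other limits lay below the filter of 1 FPKM.

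With the limma test used across all genes, 34 of the 39 genes were called higher on day 3 (adjusted p under 0.05 and a log2 difference above 0.5), where 0.887% of all tested genes were called higher and 1.53% lower. In 36 of the 39 genes all 3 Mct1-deficient libraries lay above both control libraries, against 21% of all tested genes. Both counts follow from the choice of the genes. The 5 genes not called, Evi2, Mmp9, Ugt2b35, Entpd4 and Zfp966, met the limit on their means but varied widely between libraries or were close to 0.

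The genes of B cell quiescence and traffic included Klf2, S1pr1 and Itgb7. Klf2 encodes the transcription factor that keeps lymphocytes quiescent. It had 468 and 579 FPKM in the control and 423 and 425 FPKM in the Mct1-deficient libraries on day 0. On day 3 it had 47.5 and 48.0 FPKM in the control and 84.2, 89.8 and 89.9 FPKM in the Mct1-deficient libraries. The day 3 groups were apart by 1.84-fold (log2 difference 0.87, standard error 0.0730), and both were far below the naive level, of which 9.12% was left in the control and 20.7% in Mct1-deficient B cells.

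S1pr1, the receptor for sphingosine-1-phosphate that guides lymphocytes out of lymphoid organs, followed the same course. Its day 0 values were 128 and 120 FPKM in the control and 112 and 122 FPKM in Mct1-deficient B cells, which overlapped. After 3 days 6.37 and 5.68 FPKM remained in the control and 12.9, 11.8 and 11.6 FPKM in Mct1-deficient B cells, a log2 difference of 0.90 (standard error 0.0649). Itgb7, the integrin chain that pairs with the alpha 4 chain to bind the gut addressin MAdCAM-1, had 75.8 and 75.2 FPKM in the control and 69.7 and 66.1 FPKM in Mct1-deficient B cells on day 0. On day 3 these values were 2.77 and 2.34 FPKM against 4.68, 6.04 and 5.49 FPKM, a 2.11-fold difference that left both genotypes under 10% of their naive level.

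Of the 18 homing and egress genes listed for comparison, 17 were tested, and S1pr1 and Itgb7 were higher and Ccr7 lower in Mct1-deficient B cells on day 3, while 14 were not called. Ccr7, which is not among the 39 genes and encodes the chemokine receptor for entry into the T cell zone, had 58.1 and 61.0 FPKM in the control and 28.1, 29.7 and 31.4 FPKM in Mct1-deficient B cells (log2 difference -0.98, adjusted p = 5.17e-06 from limma). Among these receptors the genotypes thus differed in both directions. Of 18 quiescence factors, Klf2 alone was called on day 3, and the median difference of the other 17 was 0.02. In control B cells, 17 of the 18 quiescence factors were called lower after activation, so most of this list fell without a called difference between the genotypes.

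Promoter sequences from RefSeq (GRCm38.p6, 250 bases before to 50 after a transcription start) were at hand for 29 of the 39 genes, in 42 windows. The element CCNCACCC, a form of the CACCC box that KLF proteins bind, was searched on both strands and was present in 21.4% of these windows, in 23.6% of the windows of the repressed genes and in 19.2% of the 11156 windows of all tested genes. The FOXO element GTAAACA was present in 7.14% of the windows of the 39 genes (Marchf1, Mid1 and Ugt2b35), in 3.47% of those of the repressed genes and in 2.58% of all windows. The octamer ATGCAAAT was found in 2.38%, 1.51% and 1.27% in the same order, the PU.1 element GAGGAAGT in 4.76%, 5.93% and 3.52% and the E-box CACGTG in 7.14%, 8.30% and 10.2%. With 42 windows, each of these shares rests on at most 9 windows. The stretches with these elements are shown for Itgb7 (chr15:102231936-102232142, minus strand), Marchf1 (chr8:65618434-65618506, plus strand) and Vim (chr2:13574157-13574214, plus strand), which represent the traffic, antigen presentation and filament genes described here. They are written 5′ to 3′ on the strand of the gene with the KLF and, in Marchf1, also the FOXO element in capitals.
Itgb7: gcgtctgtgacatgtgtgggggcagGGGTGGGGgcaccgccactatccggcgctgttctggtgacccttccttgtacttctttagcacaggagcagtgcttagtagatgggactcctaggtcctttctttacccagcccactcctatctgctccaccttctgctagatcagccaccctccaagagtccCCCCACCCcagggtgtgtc
Marchf1: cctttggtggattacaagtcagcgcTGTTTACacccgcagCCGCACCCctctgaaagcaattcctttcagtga
Vim: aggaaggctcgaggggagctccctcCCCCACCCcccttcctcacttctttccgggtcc
In Itgb7 the elements begin 182 and 19 bases before the start, in Vim 129 bases before it, and in Marchf1 66 (FOXO) and 51 (KLF) bases before it. The start of the Marchf1 window was not found in a GENCODE transcript of the gene, unlike those of Itgb7 and Vim. A match of letters is not a bound site.

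**Figure D2:**
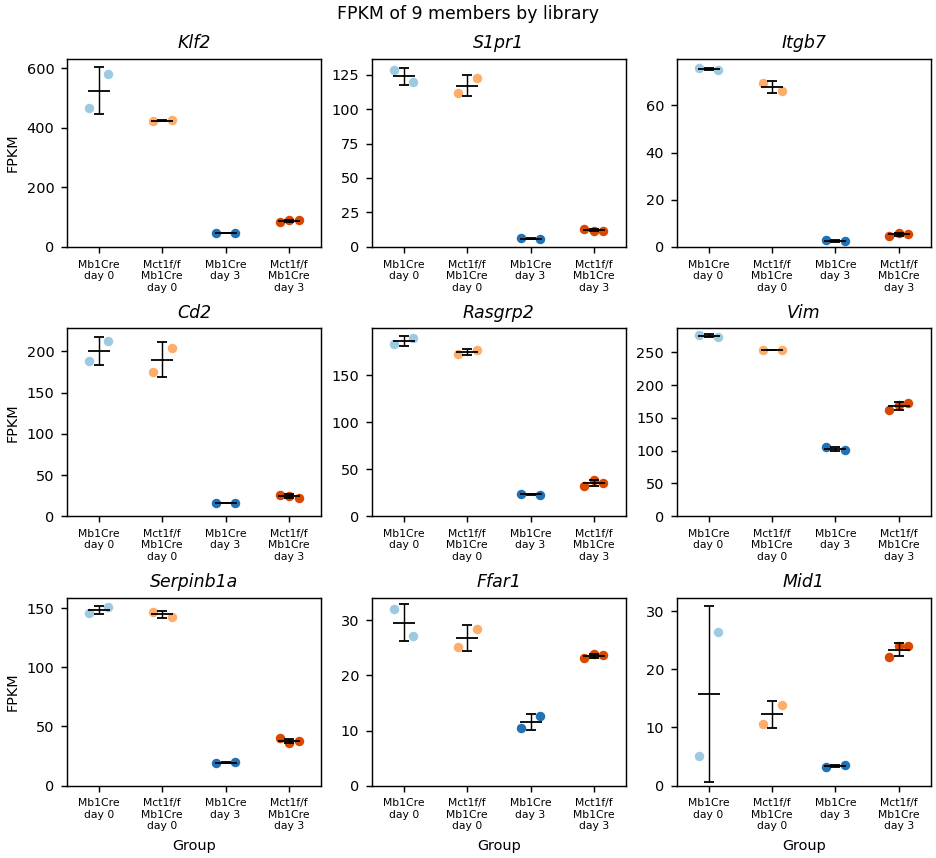
FPKM of 9 of the 39 genes in each library (points), with the mean and SD of each group (black), for Mb1Cre and Mct1f/fMb1Cre B cells on day 0 (n = 2 and 2) and day 3 (n = 2 and 3). On day 3 the orange points of Mct1f/fMb1Cre lie above the blue points of Mb1Cre in every panel, as the choice of the genes requires of their means, and in Mid1 the day 0 control libraries lie far apart (5.0 and 26.4 FPKM).

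Genes of B cell signalling and adhesion formed a further set. Rasgrp2 encodes an exchange factor that activates the integrin regulator RAP1, and Rasgrp3 a diacylglycerol-sensitive exchange factor for RAS that acts downstream of the B cell receptor. Rasgrp2 had 183 and 190 FPKM in the control and 172 and 177 FPKM in Mct1-deficient B cells on day 0. On day 3 it had 23.5 and 22.9 FPKM against 32.5, 38.2 and 35.4 FPKM (log2 difference 0.59, standard error 0.0582).

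Rasgrp3 fell less, from 50.5 and 40.0 FPKM to 14.6 and 15.2 FPKM in the control, and from 46.6 and 43.9 FPKM to 21.6, 21.8 and 21.2 FPKM in Mct1-deficient B cells. Its day 0 values overlapped, its day 3 values did not, and with a log2 difference of 0.50 it was the gene nearest to the limit. Of the 27 genes listed for B cell receptor signalling, Rasgrp2 and Rasgrp3 were among those called higher on day 3, and none was called lower. The 25 listed genes that were not selected had a median difference of 0.06 on day 3.

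Cd2, the adhesion receptor that binds CD48 in mice, was among the most abundant of the 39 genes in naive cells. It had 188 and 213 FPKM in the control and 175 and 205 FPKM in Mct1-deficient B cells on day 0, with overlap. After activation it had 16.1 and 15.6 FPKM in the control and 26.1, 24.6 and 21.6 FPKM in Mct1-deficient B cells, a 1.52-fold difference (log2 difference 0.57, standard error 0.0853). Among the 11 tested genes of the CD2 and SLAM family, Slamf1, a self-ligand receptor outside the 39 genes, was higher (0.64, adjusted p = 0.000486 from limma) and Slamf9 lower (-0.73, adjusted p = 0.00205 from limma), and 8 were not called. Sbk1, which encodes a serine/threonine kinase with an SH3-binding domain, had 107 and 120 FPKM against 98.4 and 104 FPKM on day 0 and 14.96 and 13.58 FPKM against 22.2, 22.0 and 22.3 FPKM on day 3. The 3 Mct1-deficient libraries of day 3 were nearly equal in this gene and lay above both control libraries.

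Of the listed inhibitory receptors (18 tested) and Toll-like receptors and adaptors (19 tested), 0 were called between the genotypes on day 3 in limma, with 9 and 8 at an unadjusted p under 0.05, and neither list held any of the 39 genes. In the same limma test 0 of 17 marginal zone and B-1 cell genes were called, with 11 at an unadjusted p under 0.05. The share of all tested genes with such a p on day 3 is not given here. All Mct1-deficient libraries of day 3 lay above both control libraries in 11 of 21 listed inhibitory receptors, and below in 3. Of 20 listed Toll-like genes, 10 lay above and 2 below, and of 18 marginal zone and B-1 genes, 8 and 4. Over all tested genes, 21% lay above.

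Receptors for soluble ligands were represented by Il9r, Ackr2 and Ffar1. Il9r encodes the ligand-binding chain of the IL-9 receptor. It had 25.8 and 17.6 FPKM in the control and 28.1 and 25.3 FPKM in Mct1-deficient B cells on day 0, and 2.15 and 2.19 FPKM against 5.78, 5.18 and 5.28 FPKM on day 3. The day 3 groups were apart by 2.49-fold (log2 difference 1.02, standard error 0.123), with about 10.0% of the naive level left in the control and 20.2% in Mct1-deficient B cells. Of 19 tested cytokine receptors, Il9r and Lifr were called higher on day 3 and none lower, and Lifr, which had not fallen in the control, went from 4.93 and 4.87 FPKM to 9.74, 8.53 and 8.73 FPKM with the loss of Mct1 (log2 difference 0.76, adjusted p = 0.000294 from limma).

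Ackr2, an atypical receptor that takes up inflammatory CC chemokines without signalling through G proteins, was a low transcript with 4.27 and 4.43 FPKM in the control and 5.47 and 5.77 FPKM in Mct1-deficient B cells on day 0. On day 3 it had 0.59 and 0.57 FPKM in the control and 2.50, 2.17 and 2.14 FPKM in Mct1-deficient B cells, so that the lowest Mct1-deficient library was 3.63-fold above the highest control library. In Ackr2 the Mct1-deficient libraries lay above the control libraries on both days. Ffar1, a receptor for long-chain fatty acids, behaved differently in the 2 genotypes. It had 32.0 and 27.2 FPKM in the control and 25.2 and 28.5 FPKM in Mct1-deficient B cells on day 0, fell to 10.5 and 12.6 FPKM in the control on day 3, and stood at 23.1, 23.9 and 23.6 FPKM in Mct1-deficient B cells on day 3. This was 39% of the naive level in the control and 87.8% in Mct1-deficient B cells, where the gene was not called lower after activation.

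Marchf1 encodes the membrane ubiquitin ligase that removes MHC class II and CD86 from the surface of resting antigen-presenting cells. It had 69.9 and 66.5 FPKM in the control and 84.5 and 72.5 FPKM in Mct1-deficient B cells on day 0, the Mct1-deficient libraries above both control libraries. After activation it had 4.34 and 4.22 FPKM against 7.04, 7.02 and 6.15 FPKM (log2 difference 0.55, standard error 0.0728). Marchf1 was the only one called of 13 listed MHC class II genes, which also held Ciita, Cd74 and the chains of the class II molecules. In 12 of these 13 genes all Mct1-deficient libraries of day 3 lay above both control libraries (21% of all tested genes), with a median difference of 0.15 among the 12 genes other than Marchf1.

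The filament and membrane genes fell less in both genotypes. Vim encodes vimentin, the intermediate filament protein of lymphocytes. It had 277 and 274 FPKM in the control and 254 and 254 FPKM in Mct1-deficient B cells on day 0, and 105 and 101 FPKM against 161, 170 and 172 FPKM on day 3. Accordingly 37.3% of the naive level was left in the control and 66.1% in Mct1-deficient B cells. The day 3 log2 difference of 0.70 had a standard error of 0.0407, so its error was among the smallest of the 39 genes.

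Ehd2, an ATPase of caveolae, had 9.55 and 9.23 FPKM against 7.94 and 9.08 FPKM on day 0 and 3.61 and 3.76 FPKM against 6.19, 5.73 and 5.48 FPKM on day 3. Its fall in Mct1-deficient B cells (-0.48) did not pass the limit of a call. Of the 25 actin and filament genes listed, Vim, Ehd2, Rflnb and Sh3bgrl3 were called higher on day 3 and none lower. Sh3bgrl3, which missed the limit on repression, had 397 and 405 FPKM in the control and 589, 619 and 529 FPKM in Mct1-deficient B cells (log2 difference 0.52, adjusted p = 0.000427 from limma). Rflnb, a regulator of filamin, had instead risen in the control during activation (0.90) and was higher still without Mct1 (log2 difference 0.80, adjusted p = 0.000127 from limma).

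Ly6d, Serpinb1a and Rnase6 were abundant in naive cells. Ly6d encodes a GPI-anchored surface protein that marks commitment to the B lineage, and it had the highest level of the 39 genes in every group. It had 1183 and 1239 FPKM in the control and 1044 and 1161 FPKM in Mct1-deficient B cells on day 0, and 154 and 139 FPKM against 250, 255 and 239 FPKM on day 3 (log2 difference 0.76, standard error 0.0601). Serpinb1a, an inhibitor of granule serine proteases, had 146 and 151 FPKM in the control and 147 and 143 FPKM in Mct1-deficient B cells on day 0, with overlap. It fell to 19.0 and 19.6 FPKM in the control and to 39.9, 36.3 and 37.5 FPKM in Mct1-deficient B cells, a 1.97-fold difference on day 3 (log2 difference 0.94, standard error 0.0465). Rnase6, a ribonuclease with antimicrobial activity, had 110 and 113 FPKM against 103 and 106 FPKM on day 0 and 11.2 and 11.5 FPKM against 17.6, 17.0 and 17.2 FPKM on day 3.

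Some of the 39 genes are known mainly from myeloid cells. Tyrobp encodes DAP12, a signalling adaptor of myeloid and NK cells, and it had 206 and 248 FPKM in the control and 277 and 236 FPKM in Mct1-deficient B cells on day 0. On day 3 it had 5.25 and 5.46 FPKM against 9.14, 6.56 and 8.72 FPKM, and its residual level was the lowest of the 39 genes in Mct1-deficient B cells (3.18% of day 0). Alox5ap, which encodes the protein that presents arachidonic acid to 5-lipoxygenase, had 48.1 and 63.1 FPKM against 71.4 and 61.5 FPKM on day 0 and 2.18 and 2.35 FPKM against 4.72, 4.30 and 4.43 FPKM on day 3. Tbxas1, thromboxane synthase, had 6.08 and 6.23 FPKM against 7.03 and 8.12 FPKM on day 0 and 1.77 and 2.30 FPKM against 3.01, 3.93 and 3.54 FPKM on day 3. Of the 12 tested eicosanoid genes, Alox5ap and Tbxas1 were called higher and Ptger4, a receptor for prostaglandin E2, lower on day 3 (log2 difference -0.54, adjusted p = 0.000464 from limma).

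Mmp9, the gelatinase stored in neutrophil granules, was dominated by single libraries. It had 107 and 12.4 FPKM in the control and 13.7 and 7.74 FPKM in Mct1-deficient B cells on day 0, and 0.29 and 0.69 FPKM against 1.04, 1.55 and 4.61 FPKM on day 3. Without the third Mct1-deficient library of day 3 its log2 difference fell from 1.06 to 0.63.

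Most markers of other cells were not called between the genotypes on day 3, and those called differed in both directions. The 17 monocyte and macrophage markers summed to 39.9 and 39.3 FPKM in the control and to 54.5, 53.3 and 61.2 FPKM without Mct1. Of these, 3 were called higher (Lyz2, Adgre1 and Marco) and 0 lower, and 9 had an unadjusted p under 0.05 in limma. In 9 of 17 all Mct1-deficient libraries lay above both control libraries (21% of all tested genes), and in 0 all lay below. Timd4 was listed at 0 in all libraries of day 3. C1qa had 0.29 and 0.29 FPKM in the control and 0.29, 0.58 and 0.97 FPKM in Mct1-deficient B cells. The 10 neutrophil markers summed to 5.99 and 5.72 FPKM in the control and to 7.15, 4.44 and 7.25 FPKM in Mct1-deficient B cells, with 0 of 9 tested markers called in limma, 0 at an unadjusted p under 0.05 and Retnlg listed at 0 in all libraries of day 3. Of the dendritic cell markers 2 of 6 (Flt3 and Zbtb46) and of the T cell markers 1 of 7 (Thy1) were called lower without Mct1. Unlike most markers of other cells, Flt3, Zbtb46 and Thy1 had not fallen during activation of the control (log2 changes of 0.39, 0.30 and 3.38). No marker of NK, erythroid, platelet, stromal or plasma cells was called in limma, and 1 of 6, 1 of 3, 0 of 2, 0 of 2 and 4 of 5 tested, respectively, had an unadjusted p under 0.05. The part of such cells in the values of Tyrobp, Alox5ap, Tbxas1 and Mmp9, and in those of Clec4a1 and Pglyrp1, was not tested. Of the 39 genes, 14 had a day 0 mean of 10 or more times the day 3 mean in the control, as did 13 of the 17 monocyte and macrophage markers. A fall in the control was part of the choice of the 39 genes. The share of all tested genes with such a fall is not given here.

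Mid1 had the largest day 3 difference. It encodes a microtubule-associated ubiquitin ligase and lies at the boundary of the pseudoautosomal region of the mouse X chromosome. It had 5.0 and 26.4 FPKM in the control and 10.6 and 13.9 FPKM in Mct1-deficient B cells on day 0. On day 3 it had 3.26 and 3.5 FPKM against 22.0, 24.0 and 24.0 FPKM, a 6.90-fold difference (log2 difference 2.47, standard error 0.445). The wide spread of the day 0 control libraries means that its repression in the control (-1.55) rested mainly on the second library, and the rule was met in 8 of the 9 sets with a library left out. Ddx3y was at or near 0 in both day 0 control libraries, which differed in Mid1, and in the second Mct1-deficient library of day 0, and was present in the first and in all day 3 libraries.

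Evi2, Tmem267, Ugt2b35, Entpd4 and Zfp966 were low transcripts with wide spread. Tmem267, which encodes a transmembrane protein, had 6.99 and 5.32 FPKM against 3.35 and 5.36 FPKM on day 0 and 1.58 and 1.06 FPKM against 3.35, 3.82 and 4.44 FPKM on day 3, and was called. Evi2 had 2.24 and 0 FPKM in the control and 2.13, 5.83 and 3.58 FPKM in Mct1-deficient B cells on day 3, so that the groups overlapped, and without the second control library its log2 difference fell from 1.36 to 0.51. The Evi2 locus overlaps Evi2a, Evi2b and Nf1, and whether reads were counted by strand is not given in the sources used here, so its reads cannot be assigned with certainty. Ugt2b35, a member of the UDP-glucuronosyltransferase family, had 0.83 and 1.63 FPKM against 1.44, 4.28 and 6.05 FPKM on day 3, with overlap. Zfp966, of a zinc finger family with many near-identical members, had 0.07 and 1.86 FPKM against 3.11, 1.77 and 1.08 FPKM, and without the first control library its difference was 0.01 instead of 0.72. Entpd4, a nucleoside diphosphatase of the Golgi, was listed at 0 in both control libraries and at 0.96 FPKM in each Mct1-deficient library of day 3. Dse, which encodes the epimerase that forms dermatan sulfate, had 3.97 and 4.14 FPKM against 4.0 and 4.29 FPKM on day 0 and 1.27 and 1.42 FPKM against 2.47, 2.13 and 2.40 FPKM on day 3.

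The other 12 of the 39 genes are named here only to account for them, after their values were seen. They were Slc37a2, a sugar phosphate exchanger of the endoplasmic reticulum, Nxpe2, Arhgef18, a guanine nucleotide exchange factor, Blvrb, biliverdin reductase B, Xylt1, a xylosyltransferase of proteoglycan synthesis, Clec4a1, a myeloid lectin, Niban3, Sema6d, a semaphorin, Pglyrp1, a peptidoglycan recognition protein of neutrophil granules, Fam43a, the histone gene H2aw and the homeodomain-only gene Hopx. Their day 3 differences ranged from 0.51 (Hopx) to 0.85 (Slc37a2). In all 12 the Mct1-deficient libraries of day 3 lay above both control libraries (21% of all tested genes), which the choice of the genes nearly fixes.

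**Figure D3:**
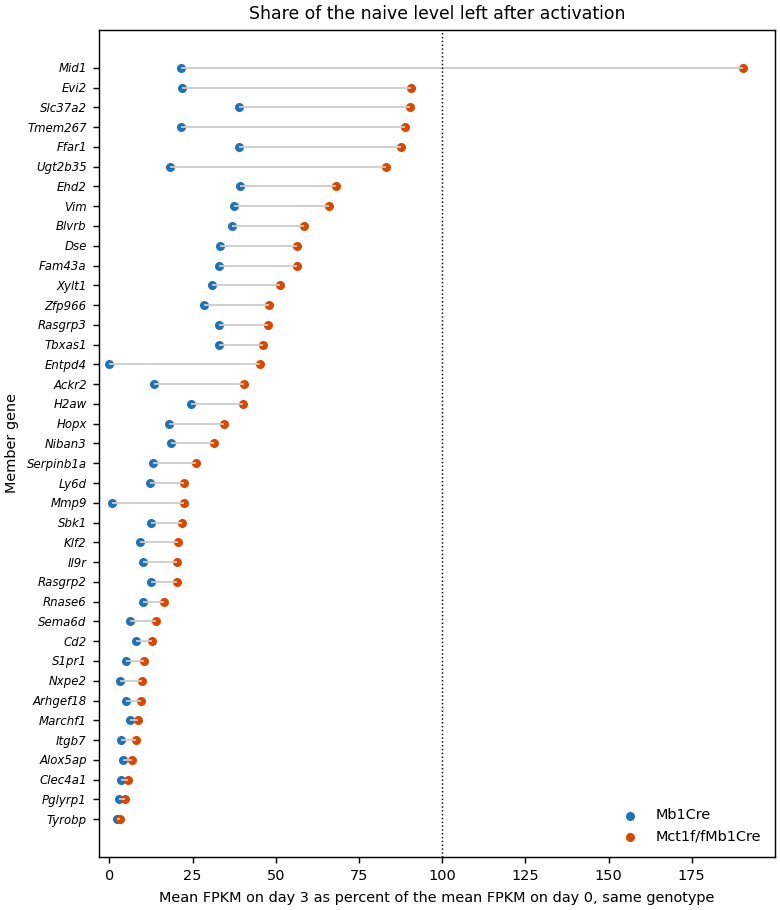
Mean FPKM on day 3 as a percent of the mean FPKM on day 0 of the same genotype, for each of the 39 genes in Mb1Cre (blue) and Mct1f/fMb1Cre (orange) B cells, ordered by the latter. The dotted line marks the naive level, which Mid1 alone passes (190%), and the lower genes, such as Tyrobp, keep a few percent in both genotypes.

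Retention was partial for most of the 39 genes. In the control, a median of 13.0% of the naive FPKM was left on day 3, with a range from 0% (Entpd4) to 39.2% (Ehd2). In Mct1-deficient B cells the median was 31.5%, from 3.18% (Tyrobp) to 190% (Mid1). Under 20% was left for 24 genes in the control and for 12 in Mct1-deficient B cells, among them S1pr1, Itgb7, Cd2, Rnase6, Marchf1, Alox5ap and Tyrobp. Between 20% and 50% was left for 15 genes in Mct1-deficient B cells, among them Klf2, Rasgrp2, Rasgrp3, Ly6d, Serpinb1a and Il9r. For 6 genes, Vim, Ehd2, Dse, Blvrb, Xylt1 and Fam43a, it was 50% to 80%, and for 6 further genes, Mid1, Evi2, Tmem267, Ugt2b35, Ffar1 and Slc37a2, at least 80%.

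After activation of Mct1-deficient B cells, 30 of the 39 genes were called lower in limma, against 33.2% of all tested genes, while in the control the count was 39 of 39, which the rule nearly fixes, against 33%. The 9 genes not called lower without Mct1 were Mid1, Evi2, Tmem267, Ugt2b35, Ffar1, Slc37a2, Entpd4, Zfp966 and Ehd2. The median log2 change was -1.63 in Mct1-deficient B cells and -2.35 in the control, against -0.14 and -0.12 over all tested genes. Under other scalings of the libraries the control median of all genes moved to between -0.31 and 0.07, and that of the 39 genes to between -2.55 and -2.15. Since the day 3 Mct1-deficient libraries were used to choose the genes, no test was made of this difference.

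**Figure D4:**
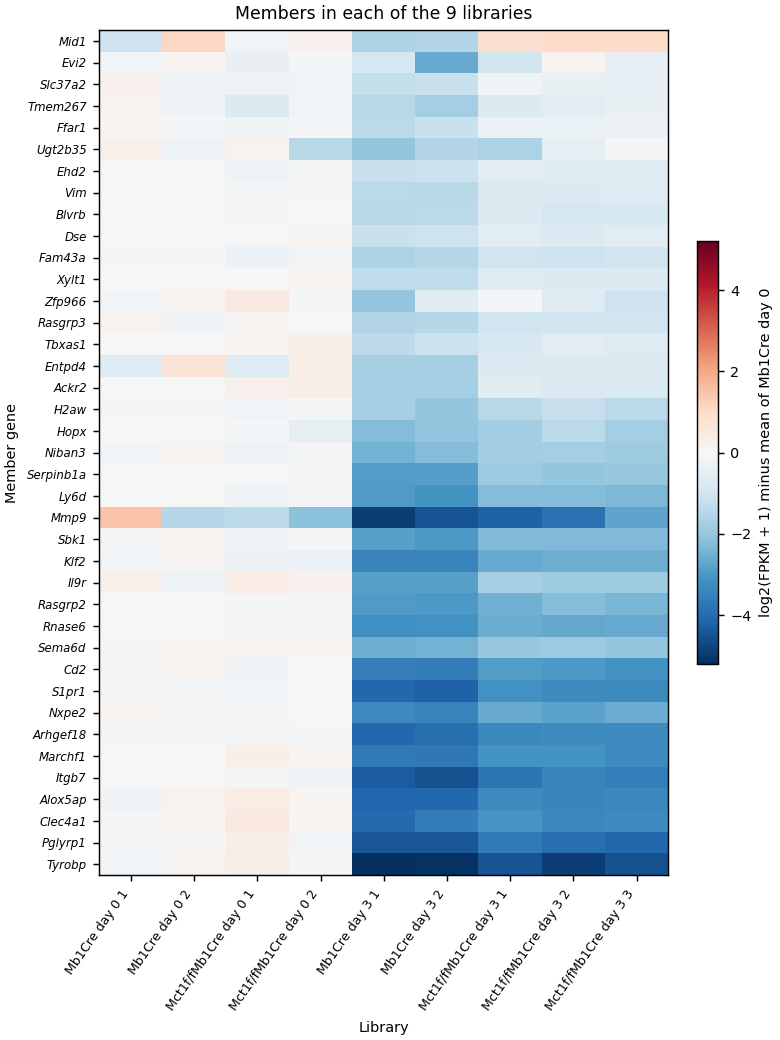
Difference of log2(FPKM + 1) from the mean of the Mb1Cre day 0 libraries for the 39 genes (rows, ordered by the share left in Mct1f/fMb1Cre) in each of the 9 libraries (columns). Blue cells are lower and red cells higher than the naive control, and the day 3 Mct1f/fMb1Cre columns are paler than the day 3 Mb1Cre columns for most genes, the largest exceptions being single libraries of Evi2, Ugt2b35 and Zfp966.

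The day 0 libraries were used to ask whether these genes already differed between the genotypes in naive cells. The day 0 Mct1-deficient libraries took part in neither difference that chose the genes, whereas the day 0 control libraries did. In limma, 0 of the 39 genes were called, against 0.277% of all tested genes, and 11 had an unadjusted p under 0.05, 6 lower and 5 higher in Mct1-deficient B cells, against 11.7% of all tested genes. The smallest adjusted p among them was 0.213, that of Klf2, whose day 0 difference was -0.30 (standard error 0.0800) and thus opposite in sign to that of day 3. Ackr2 followed with a difference of 0.31 (standard error 0.0841, adjusted p = 0.214 from limma). The count of 0 holds for the 39 genes alone. Lrig2, which met the same limits but was left out by name, was called higher in Mct1-deficient B cells on day 0. It had 7.28 and 7.02 FPKM against 15.14 and 13.55 FPKM (log2 difference 0.91, adjusted p = 0.000744 from limma). Lyz2 and Adgre1, also left out by name, were not called on day 0 (adjusted p = 0.695 and 0.507 from limma). No other test was run on day 0, and with 2 libraries in each group small differences are not detectable.

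The median day 0 difference of the 39 genes was -0.08, against -0.01 for all genes repressed in the control and 0.00 for all tested genes. Both Mct1-deficient libraries lay below both control libraries in 12 genes (19.7% of all tested genes did so) and above them in 5 genes (18.7%), and in 22 genes the groups overlapped. Klf2, Itgb7, Ly6d, Vim, Sbk1, Rasgrp2, Rnase6 and Ehd2 were among the 12, and Ackr2, Marchf1 and Tbxas1 among the 5. The day 0 result depended on the control libraries of Mid1, Mmp9 and Il9r. Without the first day 0 control library, Mid1 (-1.06, adjusted p = 0.00685 from limma) and Il9r (0.58, adjusted p = 0.0391 from limma) were called, and without the second, Mid1 (1.13, adjusted p = 0.00126 from limma) and Mmp9 (-3.25, adjusted p = 0.00988 from limma) were called, with Mid1 in opposite directions.

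**Figure D5:**
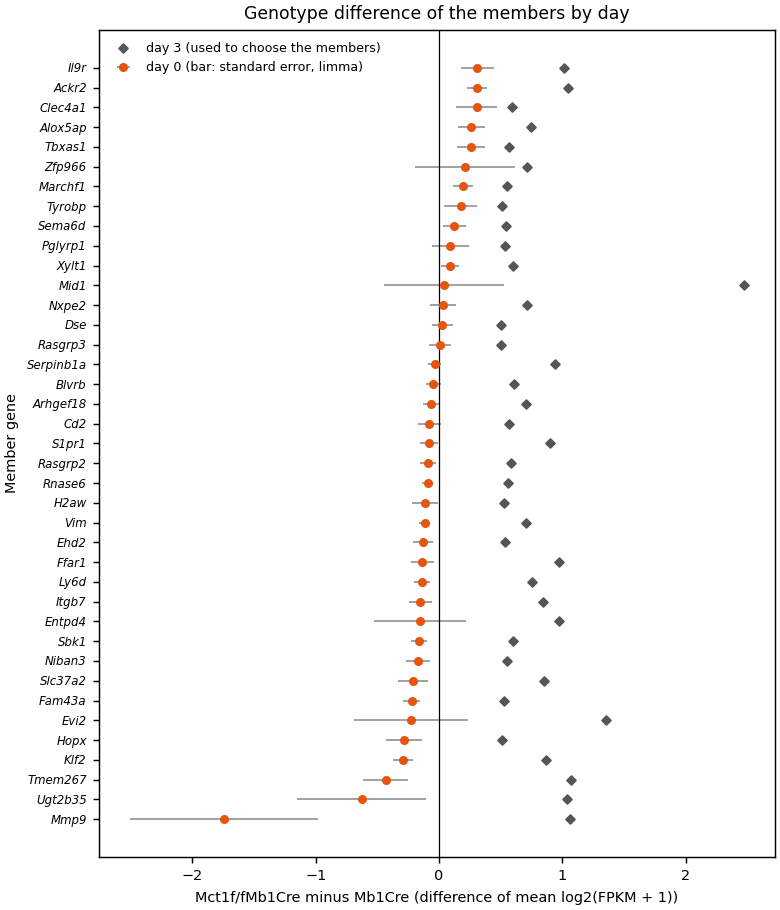
Difference of mean log2(FPKM + 1), Mct1f/fMb1Cre minus Mb1Cre, for the 39 genes on day 0 (orange points with the standard error from limma) and on day 3 (grey diamonds, which were used to choose the genes). The day 0 points lie on both sides of 0, from -1.75 (Mmp9) to 0.31 (Il9r), and none was called.

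The 39 genes are spread over 16 chromosomes, and 7 of them (17.9%) are on chromosome 7, which holds 7.81% of all tested genes. Among the 7 are Tyrobp (chromosome 7, 30413782 to 30417582, GRCm38.p6) and Ffar1 (30860568 to 30861470), which lie in the same neighbourhood. Klf2 is on chromosome 8 (72319062 to 72321654), S1pr1 on chromosome 3 (115710433 to 115715055) and Itgb7 on chromosome 15 (102215994 to 102233405). The share on chromosome 7 was not tested. Distances of the 39 genes to the Cre locus (Cd79a) and to the floxed Slc16a1 were not examined.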

How the data were processed

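Primary B cells were sequenced in 9 libraries. The authors deposited FPKM values for 17596 genes. Bowtie2 and GRCm38 (mm10) are named in the submitters' processing notes, and the counting tool, its strand setting and the annotation are not given in the sources used here. FPKM values hold no counts, so depth is unknown, and precision rests on the 2 or 3 libraries in each group. The libraries summed to 477079 to 491459 FPKM on day 0 and 547355 to 563586 on day 3. Here, log2(FPKM + 1) was taken without scaling. Genes whose mean reached 1 FPKM were fitted with limma 3.58.1 in R 4.3.3 (1 mean for each group, trend, Benjamini-Hochberg adjustment over 10823 genes). This procedure was tried on simulated data for the genotype comparison of day 0 alone, with an outcome not reported here. A call needed an adjusted p under 0.05 together with a log2 difference above 0.5. Fold changes on this scale understate those of low genes. The 39 genes and the comparison lists were chosen with earlier results of these data known. Genes described singly were the 10 with the largest day 3 difference, the 10 most abundant in the naive control, those in a comparison list, those called on day 0 and those next to a limit, and others are said to be named after their values were seen. Named besides these were the genes of the lists called on day 3. Alternatives were other pseudocounts, filters and scalings, libraries left out, the replicate number as a block, a fit of 2 groups, no trend and other fold limits. A crossed block and a count without genes at least 10 times higher on day 0 were added after seeing the data. Gene positions and promoters come from RefSeq (GRCm38.p6) and transcript starts were checked in GENCODE. A few results of the comparison lists are not reported here.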

Additional observations from a re-analysis of the deposited data

Results flagged for a closer look

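In 8 of the 27 selected genes described singly, both Mct1-deficient libraries lay below both control libraries on day 0 (19.7% of all tested genes). In these 8 genes all 3 Mct1-deficient libraries lay above both control libraries on day 3 (21% of all tested genes). The day 3 side was nearly fixed by the choice of the genes. The day 0 side was not free of that choice, since a high value in the day 0 control libraries favours selection. Both therefore enlarge the difference between the days, which was not tested. The genotype difference on day 3 exceeded that on day 0 by 1.16 in Klf2, 0.997 in Itgb7, 0.89 in Ly6d, 0.82 in Vim, 0.76 in Sbk1, 0.68 in Rasgrp2, 0.67 in Ehd2 and 0.65 in Rnase6, on the log2(FPKM + 1) scale.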

How the results depend on the processing

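The number of genes that met the rule depended on the pseudocount, with 183 genes at 0.1 (39 of them shared) and 10 at 5 (10 shared). It lay between 29 and 48 under the other filters and scalings and between 39 and 52 with each library left out, and 23 of the 39 genes met the rule in all 9 of these sets. The number of the 39 genes called on day 0 ranged from 0 to 2 with each library left out. The planned day 0 values of called genes were not run, as no gene was called. The number called lower after activation without Mct1 stayed between 24 and 32. No day 3 difference of the 27 selected genes described singly changed sign, but its size depended on the pseudocount for low genes, moving by over 1.5 times in 5 genes at 0.1 and in 15 at 5. Examples are Ackr2 (1.80 and 0.38 against 1.05), Entpd4 (3.41 and 0.25 against 0.97), Alox5ap (0.38 at 5 against 0.75) and Marchf1 (0.34 at 5 against 0.55). Single day 3 libraries also moved Evi2 (2.20 without the first control library) and Zfp966 (1.42 without the second control and 0.46 without the first Mct1-deficient library). Without the 14 genes that were 10 or more times higher in the naive control, 22 of 25 genes had all Mct1-deficient libraries of day 3 above the control libraries (21% of all tested genes), a count nearly fixed by the choice of the genes. Same-numbered libraries did not deviate together (correlations from -0.122 to 0.0867), and the main fit did not pair them. With 2 libraries in most groups, these correlations cannot tell whether libraries shared a mouse, litter or batch. With the replicate block, 0 genes were called on day 0, 30 were called lower after activation without Mct1 and 39 in the control, and a crossed replicate block, added after seeing the data, also gave 39. The precision is limited by 2 libraries in most groups.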
